A study of Mus musculus with 13 samples.

Results

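The enzymes that break down amino acids in the liver were followed through a course of toxic injury, using 44 listed genes that cover the methionine, tryptophan, tyrosine, histidine, glycine, branched-chain and lysine routes, together with aminotransferases, a phospholyase and proline oxidase. Every probe annotated with one of these symbols was taken, which gave 55 of the 25697 probes of the array and 39 of its 16590 gene symbols. Sds, Sdsl, Amdhd1, Mccc2 and Hgd were not analysed here. Tat, Gcsh and Hibch were not well above background on any array, and Amt on 1 naive array alone, so no change is given for these 4. The other 35 members passed the detection filter and were tested, and 33 of them were detected on all 13 arrays.

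Female C57BL/6 mice gave the RNA, taken from total liver and measured on Illumina MouseRef-8 BeadArrays of 1 colour. The untreated (naive) group had 3 arrays, and livers treated with TAA, in liver work the common abbreviation of thioacetamide, had 3 arrays at 1 week, 4 at 4 weeks and 3 at 6 weeks. Dose and route are not given in the labels, nor is it stated that samples of a group came from separate animals, so p-values measure the spread between these samples, which may be technical. Levels below are log2 intensities after background correction and quantile normalisation. Changes are differences of group means on that log2 scale with their standard error (SE). A gene was called when its limma p-value, adjusted over the 8027 genes tested, was under 0.05.

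The liver is the main site of degradation of most amino acids, and many of its catabolic enzymes are made almost only by hepatocytes. Their carbon feeds glucose and ketone formation, their nitrogen passes through aminotransferases to urea, and the methionine cycle also supplies the methyl donor S-adenosylmethionine. Several of these genes are classical targets of glucocorticoid and glucagon signalling, and their expression is a mark of the mature hepatocyte.

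Some arrays stood apart and are named where they bear on a result. Mean raw intensity lay between 408 and 611 on 9 arrays, but it was 177 on 1-week array C and 195, 273 and 202 on 6-week arrays A, B and C. The 6-week arrays and 1-week arrays B and C were also set apart from the rest by 7 genes that are no members, among them Erich5, and this array set served as a term in an alternative model. Bulk liver cannot tell fewer hepatocytes from less RNA per hepatocyte. The median of the hepatocyte markers changed less than that of the members described below. Of 6 tested (Alb, Ttr, Apoa1, Apoh, Serpina1c and Hnf4a), 1 was called lower at 1 week, 2 at 4 weeks and 1 at 6 weeks. Median changes were 0.20, -0.29 and 0.07. Serpina1c was called at each time (-0.87, -0.66 and -1.16) and Apoh at 4 weeks (-0.85). The Alb probe was dim, with a naive mean of 6.16, and those of Ttr and Apoa1 were bright, at 14.59 and 14.50. The summed level of the 6 markers ran from 77413 to 94154 on naive arrays and 74915 to 87106 at 1 week. It ran from 67386 to 76382 at 4 weeks and 70239 to 83285 at 6 weeks, so only the 4-week arrays were all below naive.

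More members were called lower after 4 and 6 weeks of TAA than after 1 week. At 1 week 8 of 35 were called lower and 2 higher, where 12.3% of all genes were called lower and 13.3% higher. At 4 weeks 23 of 35 were called lower and 0 higher, against 12.9% and 15.2% of all genes. At 6 weeks 26 of 35 were called lower and 0 higher, against 16.4% and 22.4% of all genes. The median change of the 35 was -0.29 at 1 week, -0.81 at 4 weeks and -0.94 at 6 weeks, beside 0.02, 0.03 and 0.09 over all genes tested. Treated and naive arrays did not overlap for 17 members at 1 week, 27 at 4 weeks and 28 at 6 weeks, where the share over all genes was 36.3%, 45.4% and 52.7%. At 4 and at 6 weeks all 35 changes were negative, and 33 were at 6 weeks with each array scaled to the median of the probes detected on all arrays in place of quantile normalisation. Array weights left 34 negative at both times, and leaving out 1 array left at least 33. Scaling to the median of all probes moved the median of all genes to 0.24 at 4 weeks and -0.65 at 6 weeks, and with it the members called lower to 5 and 32. These comparisons share the 3 naive arrays, so they are not independent of one another.

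The comparisons between treated times take no mean from the naive arrays. Those arrays still enter the normalisation and the shared estimate of spread. From 1 to 4 weeks 16 members were called lower and 1 higher, against 4.41% and 4.4% of all genes, with a median of -0.64 for the members and 0.02 for all genes. From 4 to 6 weeks 3 were called lower and 0 higher, against 3.09% and 2.22% of all genes, and the median was -0.20. From 1 to 6 weeks 22 were called lower and 0 higher, against 3.9% and 5.28% of all genes, with a median of -0.76. With the array set as a term, 23 members were still called lower at 4 weeks against naive (13.8% of all genes), but 13 at 6 weeks against naive (5.18%). Between treated times, 1 was called lower from 1 to 4 weeks (1.2% of all genes), 0 from 4 to 6 weeks (0%) and 13 from 1 to 6 weeks (2.02%). All 35 changes at 6 weeks against naive stayed negative with this term. Scaling to the median of all probes shifted the genes as a whole, to a median of 0.71 from 1 to 4 weeks and of -0.94 from 4 to 6 weeks, and the 0 and 28 members called lower under it were counted on top of that shift. The counts called lower without the dim 1-week array C were 8 from 1 to 4 weeks, 5 from 4 to 6 weeks and 12 from 1 to 6 weeks. Of all genes, 3.19%, 4.31% and 3.53% were then called lower.

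**Figure D1:**
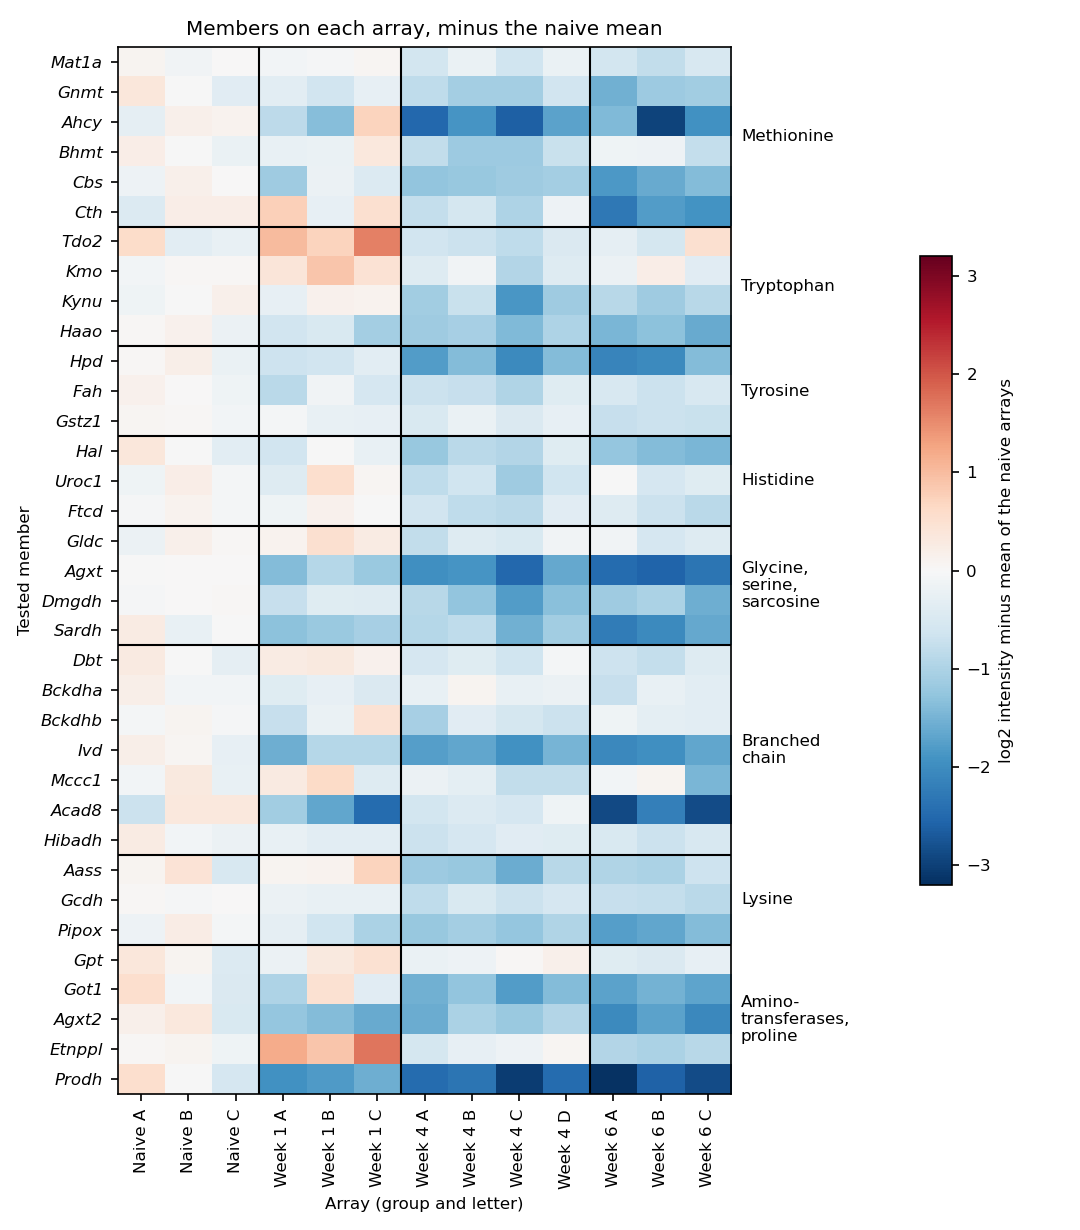
Log2 intensity of the 35 tested members (rows, grouped by pathway) on each of the 13 arrays (columns), minus the mean of the naive arrays for that gene; blue is lower and red higher. Most rows turned blue at 4 weeks, while Tdo2 and Etnppl were red on all 3 arrays of 1 week.

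The deepest falls at 4 weeks were those of Prodh, Ahcy, Agxt, Ivd, Hpd and Got1, which belong to 5 of the pathway groups described below. Promoters of the first 3 are shown to give the sequence context of these genes, as RefSeq lists them on GRCm38.p6, 5′ to 3′ from 250 bases before to 50 bases after the start, with the transcribed bases in capitals.
Prodh (chr16:18089141-18089440, minus strand): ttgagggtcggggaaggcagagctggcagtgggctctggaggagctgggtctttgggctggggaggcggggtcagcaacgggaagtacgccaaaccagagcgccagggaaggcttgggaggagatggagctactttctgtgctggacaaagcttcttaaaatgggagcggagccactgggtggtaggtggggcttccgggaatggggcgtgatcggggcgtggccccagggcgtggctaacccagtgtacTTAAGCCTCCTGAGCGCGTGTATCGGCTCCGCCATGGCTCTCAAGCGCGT
Ahcy (chr2:155074448-155074747, minus strand): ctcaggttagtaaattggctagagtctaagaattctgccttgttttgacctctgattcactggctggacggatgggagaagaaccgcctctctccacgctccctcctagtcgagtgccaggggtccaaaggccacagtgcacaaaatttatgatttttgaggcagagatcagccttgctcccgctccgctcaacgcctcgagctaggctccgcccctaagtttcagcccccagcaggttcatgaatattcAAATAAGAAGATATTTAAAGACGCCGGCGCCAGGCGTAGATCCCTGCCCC
Agxt (chr1:93134990-93135289, plus strand): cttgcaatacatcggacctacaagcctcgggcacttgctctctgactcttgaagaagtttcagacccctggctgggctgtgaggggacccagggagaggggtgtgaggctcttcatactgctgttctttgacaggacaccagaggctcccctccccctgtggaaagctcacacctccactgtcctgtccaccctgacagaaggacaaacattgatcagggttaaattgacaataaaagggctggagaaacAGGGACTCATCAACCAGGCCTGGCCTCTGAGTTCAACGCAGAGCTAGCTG

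RefSeq promoters of this kind were on hand for 37 of the 44 members and 30 of the 35 tested. Both strands were searched for TATAAA (core promoter box), CAAAGTCCA (HNF4), TGTTTAC (FOXA), TTGCNNAA (C/EBP), TGACGTCA (CRE) and the HNF1 and glucocorticoid receptor consensus palindromes, allowing overlaps. None of these letters occurred in the windows of Prodh, Ahcy, Agxt, Ivd, Hpd or Got1. TATAAA occurred in 4 of the 30 members (Agxt2, Ftcd, Hal and Tdo2) and in 13.6% of the 32851 promoters listed. TTGCNNAA occurred in 4 members (Aass, Agxt2, Gcdh and Hal) and in 10.8% of all promoters. CAAAGTCCA was found in Agxt2 and Pipox and in 0.475% of all promoters, TGTTTAC in Hibadh and in 3.65%, and the glucocorticoid receptor palindrome in Gnmt and in 0.475%. TGACGTCA (1.79% of all promoters) and the HNF1 palindrome (0.0091%) were in none of the 30.

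In the methionine cycle the largest falls at 6 weeks were those of Ahcy, Cth and Cbs, which act past S-adenosylmethionine. Of 6 tested members 0 were called at 1 week, 4 were called lower at 4 weeks and 5 at 6 weeks, with medians of -0.23, -0.93 and -1.45. The synthetase that makes S-adenosylmethionine in hepatocytes, Mat1a, changed less, by -0.01, -0.42 and -0.63 ± 0.17 (adjusted p = 0.00923) at 1, 4 and 6 weeks, of which only the last was called. Gnmt, which uses S-adenosylmethionine to methylate glycine, had log2 intensities of 15.01, 14.63 and 14.27 on the naive arrays, 14.29, 14.03 and 14.36 at 1 week, 13.82, 13.55, 13.55 and 14.03 at 4 weeks, then 13.09, 13.46 and 13.52 at 6 weeks. All 4-week and 6-week arrays lay below the lowest naive array, and the 6-week arrays below every 4-week array. Gnmt changed by -0.90 ± 0.20 (adjusted p = 0.00404) at 4 weeks and by -1.28 ± 0.21 (adjusted p = 0.00038) at 6 weeks, and its second probe changed by -0.77 and -1.98.

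Ahcy, which hydrolyses S-adenosylhomocysteine to homocysteine, had log2 intensities of 9.90, 10.34 and 10.28 on the naive arrays, 9.35, 8.82 and 10.89 at 1 week, 7.67, 8.27, 7.56 and 8.47 at 4 weeks, then 8.75, 7.21 and 8.24 at 6 weeks. Every 4-week and 6-week array was below all naive and all 1-week arrays, whereas the 1-week arrays straddled the naive ones and array C, the dim array, was the highest of all 13. The change was -2.18 ± 0.43 (adjusted p = 0.00184) at 4 weeks and -2.10 ± 0.46 (adjusted p = 0.00257) at 6 weeks, with the widest SE among the members, and the adjusted p at 6 weeks was 0.0628 with the array set as a term. Bhmt, which returns homocysteine to methionine with betaine, fell by 0.96 ± 0.21 (adjusted p = 0.00377) at 4 weeks and stood at -0.35 ± 0.23 (adjusted p = 0.234) at 6 weeks.

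The 2 transsulfuration enzymes carry homocysteine on to cysteine. Log2 intensities of Cbs, which joins homocysteine to serine, were 10.86, 11.16 and 11.01 on the naive arrays, 9.87, 10.81 and 10.57 at 1 week, 9.74, 9.79, 9.88 and 9.91 at 4 weeks, then 9.16, 9.39 and 9.62 at 6 weeks. The 3 groups of treated arrays all lay below the naive arrays, and 6-week arrays lay below every 4-week array. Cbs changed by -0.59 ± 0.22 (adjusted p = 0.0589) at 1 week, which was not called. It changed by -1.18 ± 0.20 (adjusted p = 0.000755) at 4 weeks and by -1.62 ± 0.22 (adjusted p = 7.8e-05) at 6 weeks. Its second probe changed by -0.68 (limma, adjusted p = 0.0381 over all probes) at 1 week and so passed where the brighter probe did not. At the later times the second probe changed by -1.14 and -1.78. For Cth, which splits cystathionine, the values were 8.72, 9.38 and 9.36 on the naive arrays, 9.91, 8.90 and 9.67 at 1 week, 8.39, 8.58, 8.15 and 8.98 at 4 weeks, then 6.87, 7.36 and 7.24 at 6 weeks. Cth overlapped naive at 1 and 4 weeks, and at 6 weeks all 3 arrays lay below the other 10. Its changes were 0.34 ± 0.28 (adjusted p = 0.402), -0.63 ± 0.26 (adjusted p = 0.0894) and -1.99 ± 0.28 (adjusted p = 0.000104), and it was among the 3 members called lower from 4 to 6 weeks, at -1.37 ± 0.26 (adjusted p = 0.00953). With the array set as a term the 6-week change from naive was -1.37 (adjusted p = 0.0777), and without 6-week array A the fall from 4 to 6 weeks was not called.

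In the tryptophan route the entry enzyme rose at 1 week, and of the later steps Haao was called lower at all 3 times and Kynu at 4 and 6 weeks. Of 4 tested members 1 was called lower and 1 higher at 1 week, and 2 lower at both 4 and 6 weeks, with medians of 0.29, -0.90 and -0.54. Tdo2, the dioxygenase that opens the indole ring of tryptophan, had log2 intensities of 7.10, 6.20 and 6.28 on the naive arrays, 7.54, 7.25 and 8.14 at 1 week, 5.93, 5.85, 5.70 and 6.06 at 4 weeks, then 6.24, 5.96 and 7.04 at 6 weeks. The 1-week arrays lay above all others, the 4-week arrays lay just below the lowest naive array, and the 6-week arrays overlapped naive. Tdo2 rose by 1.11 ± 0.30 (adjusted p = 0.0153) at 1 week, was at -0.64 ± 0.28 (adjusted p = 0.103) at 4 weeks and at -0.12 ± 0.30 (adjusted p = 0.788) at 6 weeks, and changed by -1.76 ± 0.28 (adjusted p = 0.00521) from 1 to 4 weeks. The rise was not called without naive array B, naive array C or 1-week array C, nor with the array set as a term (1.01, adjusted p = 0.141). Kmo, which hydroxylates kynurenine, was also above naive on all 3 arrays of 1 week (0.57 ± 0.22 (adjusted p = 0.0683), not called) and fell by 1.05 ± 0.21 (adjusted p = 0.00961) from 1 to 4 weeks.

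Further down, Kynu, the kynureninase, had log2 intensities of 10.69, 10.82 and 10.98 on the naive arrays, 10.56, 10.98 and 10.95 at 1 week, 9.72, 10.12, 8.96 and 9.69 at 4 weeks, then 9.95, 9.69 and 9.95 at 6 weeks. Its 1-week arrays overlapped the naive ones, and all 7 later arrays were lower. It changed by -1.21 ± 0.23 (adjusted p = 0.00128) at 4 weeks and by -0.97 ± 0.24 (adjusted p = 0.00588) at 6 weeks. Haao, the dioxygenase that leads towards quinolinate and NAD, had values of 12.62, 12.71 and 12.39 on the naive arrays, 11.95, 12.07 and 11.49 at 1 week, 11.43, 11.52, 11.16 and 11.60 at 4 weeks, then 11.11, 11.26 and 10.97 at 6 weeks. All treated arrays were below the lowest naive array. Haao changed by -0.74 ± 0.19 (adjusted p = 0.0121), -1.15 ± 0.18 (adjusted p = 0.000338) and -1.46 ± 0.19 (adjusted p = 6.23e-05) at 1, 4 and 6 weeks, and the first of these calls was lost without naive array B and with the array set as a term (adjusted p = 0.136).

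Of 3 tested members of the tyrosine route 0 were called at 1 week, 2 were called lower at 4 weeks and 3 at 6 weeks, with medians of -0.50, -0.70 and -0.71. Hpd, the dioxygenase that forms homogentisate, had log2 intensities of 12.68, 12.82 and 12.44 on the naive arrays, 11.98, 12.04 and 12.31 at 1 week, 10.86, 11.25, 10.60 and 11.27 at 4 weeks, then 10.54, 10.60 and 11.26 at 6 weeks. The 1-week arrays lay below the naive arrays, and the 4-week and 6-week arrays lay lower again and overlapped each other. Hpd stood at -0.54 ± 0.23 (adjusted p = 0.101) at 1 week and changed by -1.65 ± 0.22 (adjusted p = 9.43e-05) at 4 weeks and by -1.85 ± 0.23 (adjusted p = 4.81e-05) at 6 weeks, and by -1.11 ± 0.22 (adjusted p = 0.00905) from 1 to 4 weeks. The last enzymes of the route moved less. The fumarylacetoacetase Fah changed by -0.70 ± 0.19 (adjusted p = 0.0126) and -0.58 ± 0.20 (adjusted p = 0.0346) at 4 and 6 weeks. The isomerase before it, Gstz1, stood at -0.36 ± 0.14 (adjusted p = 0.0689) at 4 weeks and changed by -0.71 ± 0.15 (adjusted p = 0.00201) at 6 weeks.

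For histidine, 0 of 3 tested members were called at 1 week, 3 were called lower at 4 weeks and 2 at 6 weeks, with medians of 0.00, -0.81 and -0.66. Hal, the ammonia-lyase of the first step, had log2 intensities of 12.76, 12.40 and 12.07 on the naive arrays, 11.80, 12.39 and 12.17 at 1 week, 11.20, 11.54, 11.47 and 12.01 at 4 weeks, then 11.17, 11.02 and 10.96 at 6 weeks. The 4-week arrays lay below the naive arrays, and the 6-week arrays lay below every 4-week array. Hal changed by -0.85 ± 0.22 (adjusted p = 0.00903) at 4 weeks and by -1.36 ± 0.23 (adjusted p = 0.000438) at 6 weeks, the first not called without naive array A. The urocanate hydratase Uroc1 fell by 0.81 ± 0.22 (adjusted p = 0.0131) at 4 weeks, which was not called without naive array B, and was at -0.31 ± 0.23 (adjusted p = 0.312) at 6 weeks. Ftcd, which passes the formimino group to folate, changed by -0.67 ± 0.17 (adjusted p = 0.00845) and by -0.66 ± 0.18 (adjusted p = 0.00977) at these times, and its second, dimmer probe changed by -0.60 and -1.77.

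**Figure D2:**
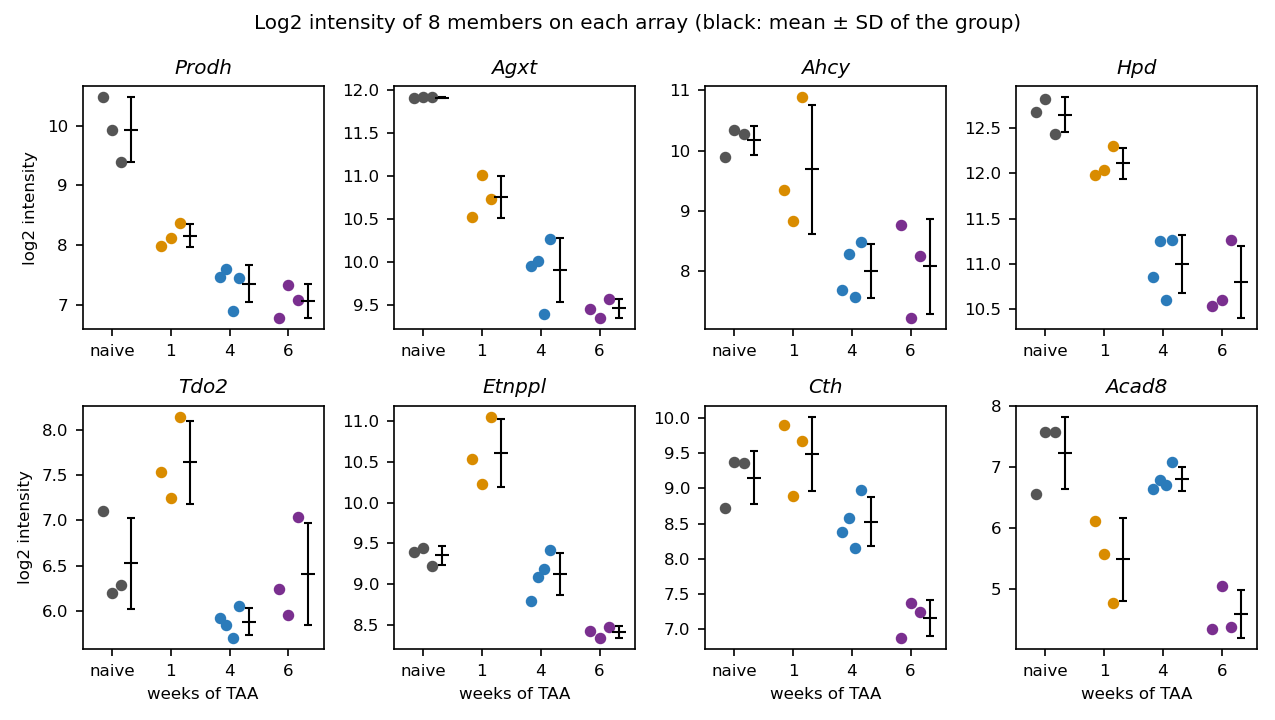
Log2 intensity (vertical axes) of 8 members on each array by weeks of TAA (horizontal axes), with the mean and SD of each group in black. Prodh and Agxt were below naive from 1 week, Ahcy and Hpd were called lower at 4 and 6 weeks, Tdo2 and Etnppl peaked at 1 week, Cth dropped at 6 weeks, and Acad8 was near naive at 4 weeks alone among treated times.

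Of the genes of glycine, serine and sarcosine, 4 were tested. At 1 week 2 were called lower, and at 4 and 6 weeks 3, with medians of -0.84, -1.20 and -1.61. Agxt, the peroxisomal aminotransferase that turns glyoxylate into glycine, had log2 intensities of 11.90, 11.91 and 11.91 on the naive arrays, 10.52, 11.001 and 10.73 at 1 week, 9.95, 10.01, 9.39 and 10.27 at 4 weeks, then 9.45, 9.34 and 9.57 at 6 weeks. The naive arrays were nearly equal, every treated array was lower, and the 4-week arrays lay below every 1-week array. Agxt changed by -1.16 ± 0.21 (adjusted p = 0.00141), -2.003 ± 0.19 (adjusted p = 9.38e-06) and -2.45 ± 0.21 (adjusted p = 2.56e-06) at 1, 4 and 6 weeks, and was called in each of these under every alternative and every array left out. Gldc, the decarboxylase of the glycine cleavage system, was not called against naive, at 0.29, -0.45 and -0.36, though it fell by 0.75 ± 0.19 (adjusted p = 0.0246) from 1 to 4 weeks. Its second probe changed by -0.02 at 1 week, -0.64 (limma, adjusted p = 0.0438 over all probes) at 4 weeks and -1.04 (adjusted p = 0.0031) at 6 weeks, and so passed where the brighter probe did not.

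Dmgdh and Sardh take the methyl groups off dimethylglycine and sarcosine in mitochondria. Dmgdh had log2 intensities of 8.74, 8.80 and 8.82 on the naive arrays, 8.04, 8.39 and 8.37 at 1 week, 7.89, 7.52, 6.997 and 7.46 at 4 weeks, then 7.64, 7.78 and 7.22 at 6 weeks. All treated arrays were below the naive arrays, and the 4-week and 6-week arrays overlapped. Its changes were -0.52 ± 0.22 (adjusted p = 0.0925) at 1 week, -1.32 ± 0.20 (adjusted p = 0.000324) at 4 weeks and -1.24 ± 0.22 (adjusted p = 0.000549) at 6 weeks. Sardh had values of 8.87, 8.36 and 8.60 on the naive arrays, 7.29, 7.42 and 7.56 at 1 week, 7.71, 7.80, 7.08 and 7.51 at 4 weeks, then 6.37, 6.58 and 6.97 at 6 weeks. It was low from the first week and lowest at 6 weeks, where all 3 arrays lay below the 4-week arrays. Sardh changed by -1.19 ± 0.22 (adjusted p = 0.0016), -1.09 ± 0.21 (adjusted p = 0.00134) and -1.97 ± 0.22 (adjusted p = 2.08e-05) from naive, and by -0.89 ± 0.21 (adjusted p = 0.0243) from 4 to 6 weeks, a call lost when any 1 of 5 arrays was left out and with the array set as a term (adjusted p = 0.43).

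The branched-chain route changed unevenly. Of 7 tested members 2 were called lower at 1 week, 3 at 4 weeks and 4 at 6 weeks, with medians of -0.30, -0.49 and -0.56. The subunits of the branched-chain keto acid dehydrogenase changed by less than 1 log2 unit from naive. The E1 subunit Bckdha was not called at any time (-0.37, -0.14 and -0.44). Its partner Bckdhb was called at 4 weeks (-0.67 ± 0.24 (adjusted p = 0.0465)) but not when any 1 of 9 arrays was left out. The E2 subunit Dbt fell at 6 weeks (-0.61 ± 0.19 (adjusted p = 0.0232)), a call lost with the array set as a term (adjusted p = 0.313). A second, dim probe of Dbt, detected on 6 arrays, changed by 0.57, -0.01 and -0.15 at 1, 4 and 6 weeks. Ivd, which oxidises isovaleryl-CoA from leucine, had log2 intensities of 11.02, 10.90 and 10.57 on the naive arrays, 9.27, 9.91 and 9.92 at 1 week, 9.06, 9.18, 8.90 and 9.33 at 4 weeks, then 8.77, 8.86 and 9.18 at 6 weeks. Each treated array was below the lowest naive array. Ivd changed by -1.13 ± 0.21 (adjusted p = 0.00172), -1.71 ± 0.20 (adjusted p = 3.79e-05) and -1.89 ± 0.21 (adjusted p = 2.13e-05) at 1, 4 and 6 weeks, called under every alternative and every array left out. Mccc1, a carboxylase subunit of the next leucine step, was not called at 0.16, -0.52 and -0.49, and was undetected on 1 array.

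Acad8, the isobutyryl-CoA dehydrogenase of valine breakdown, had log2 intensities of 6.56, 7.59 and 7.57 on the naive arrays, 6.13, 5.58 and 4.77 at 1 week, 6.65, 6.80, 6.71 and 7.09 at 4 weeks, then 4.35, 5.05 and 4.39 at 6 weeks. It was low at 1 and 6 weeks and within the naive range at 4 weeks, so that 1-week and 6-week arrays lay below every 4-week array. Detection was lost with it: Acad8 was detected on 3 naive, 2 1-week, 4 4-week and 0 6-week arrays. It changed by -1.75 ± 0.33 (adjusted p = 0.00197) at 1 week, was at -0.43 ± 0.31 (adjusted p = 0.329) at 4 weeks, rose by 1.32 ± 0.31 (adjusted p = 0.0194) from 1 to 4 weeks. At 6 weeks it was at least 4.03-fold lower than naive (adjusted p = 5.34e-05) and at least 2.9995-fold lower than at 4 weeks (adjusted p = 0.00178). Measured means were 7.24 for naive, 6.81 at 4 weeks and 4.60 at 6 weeks, and the bound sets the brighter mean against the lowest detected signal of the dim arrays. A second probe changed alike, by -1.85, -0.56 and -2.31. The low arrays include the 6-week arrays and 1-week arrays B and C of the array set, and with that set as a term no comparison of Acad8 was called (adjusted p = 0.0958 at 1 week and 0.0588 at 6 weeks against naive); its part in the pattern was not tested further. Hibadh, a later valine enzyme, changed by -0.49 ± 0.16 (adjusted p = 0.0289) and -0.56 ± 0.17 (adjusted p = 0.0154) at 4 and 6 weeks, the first call lost when any 1 of 4 arrays was left out and the second with the array set as a term (adjusted p = 0.339).

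All 3 genes of lysine and pipecolate were called lower at 4 and at 6 weeks, and 1 at 1 week, with medians of -0.22, -1.13 and -0.87. Aass, the saccharopine-forming enzyme of the first lysine steps, had log2 intensities of 8.12, 8.45 and 7.50 on the naive arrays, 8.11, 8.14 and 8.74 at 1 week, 6.86, 6.80, 6.43 and 7.14 at 4 weeks, then 7.06, 7.02 and 7.37 at 6 weeks. Its 1-week arrays overlapped naive on the high side and its later arrays lay below both groups. Aass stood at 0.31 ± 0.26 (adjusted p = 0.406) at 1 week, changed by -1.22 ± 0.24 (adjusted p = 0.0018) and -0.87 ± 0.26 (adjusted p = 0.0151) at 4 and 6 weeks, and by -1.53 ± 0.24 (adjusted p = 0.00512) from 1 to 4 weeks. Pipox, the peroxisomal pipecolate oxidase, had values of 9.44, 9.83 and 9.54 on the naive arrays, 9.32, 8.97 and 8.60 at 1 week, 8.39, 8.51, 8.36 and 8.65 at 4 weeks, then 7.85, 7.94 and 8.23 at 6 weeks. Its treated arrays were all below naive and those of 6 weeks below all of 4 weeks. Pipox changed by -0.64 ± 0.20 (adjusted p = 0.0283), -1.13 ± 0.19 (adjusted p = 0.000537) and -1.60 ± 0.20 (adjusted p = 4.8e-05), and its 1-week change was -0.28 (adjusted p = 0.478) with the array set as a term. A second probe of Pipox, detected on all 13 arrays, changed by -0.91, -1.32 and -1.41. On that probe the 6-week arrays overlapped those of 4 weeks, with a change of -0.09 between them (limma, adjusted p = 0.857 over all probes). Gcdh, the glutaryl-CoA dehydrogenase further down, changed by -0.63 ± 0.14 (adjusted p = 0.00366) at 4 weeks and by -0.79 ± 0.15 (adjusted p = 0.000888) at 6 weeks.

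Of the 5 remaining genes, 2 were called lower and 1 higher at 1 week, 3 lower at 4 weeks and 4 lower at 6 weeks, with medians of -0.29, -1.18 and -1.64. Prodh, the proline dehydrogenase of mitochondria, had log2 intensities of 10.48, 9.92 and 9.40 on the naive arrays, 7.98, 8.12 and 8.38 at 1 week, 7.47, 7.60, 6.90 and 7.46 at 4 weeks, then 6.78, 7.34 and 7.08 at 6 weeks. All treated arrays were more than 1 unit below the lowest naive array, and the 4-week and 6-week arrays were below every 1-week array. Prodh changed by -1.77 ± 0.26 (adjusted p = 0.000375), -2.57 ± 0.24 (adjusted p = 8.03e-06) and -2.87 ± 0.26 (adjusted p = 4.17e-06). The 4-week fall was the largest of any tested member at that time, and all 3 were called under every alternative and every array left out.

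Agxt2, a mitochondrial aminotransferase of glyoxylate and beta-aminoisobutyrate, had log2 intensities of 9.16, 9.35 and 8.51 on the naive arrays, 7.77, 7.62 and 7.38 at 1 week, 7.42, 7.99, 7.82 and 8.06 at 4 weeks, then 6.98, 7.29 and 6.94 at 6 weeks. Every treated array was below naive, and the 6-week arrays were below all others. Agxt2 changed by -1.41 ± 0.23 (adjusted p = 0.000729), -1.18 ± 0.22 (adjusted p = 0.00107) and -1.94 ± 0.23 (adjusted p = 3.79e-05), and its second probe changed by -1.56, -1.35 and -2.09. Got1, the cytosolic aspartate aminotransferase, had values of 8.77, 8.14 and 7.77 on the naive arrays, 7.24, 8.72 and 7.86 at 1 week, 6.68, 6.97, 6.44 and 6.85 at 4 weeks, then 6.52, 6.71 and 6.53 at 6 weeks. Its 1-week arrays overlapped the naive ones and its later arrays were all lower. Got1 stood at -0.29 ± 0.32 (adjusted p = 0.542) at 1 week and changed by -1.49 ± 0.29 (adjusted p = 0.00182) at 4 weeks and by -1.64 ± 0.32 (adjusted p = 0.00103) at 6 weeks. The alanine aminotransferase Gpt was not called at any time, at 0.20, -0.05 and -0.37.

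Etnppl, a pyridoxal phosphate enzyme that splits phosphoethanolamine, went the other way at first. Its log2 intensities were 9.39, 9.44 and 9.22 on the naive arrays, 10.54, 10.23 and 11.05 at 1 week, 8.80, 9.09, 9.18 and 9.41 at 4 weeks, then 8.42, 8.33 and 8.47 at 6 weeks. The 1-week arrays stood above all others and the 6-week arrays below all others, with the 4-week arrays reaching into the naive range. Etnppl rose by 1.26 ± 0.21 (adjusted p = 0.000851) at 1 week, was at -0.23 ± 0.20 (adjusted p = 0.412) at 4 weeks and changed by -0.94 ± 0.21 (adjusted p = 0.003) at 6 weeks. From 1 to 6 weeks it fell by 2.20 ± 0.21 (adjusted p = 0.000142). A second probe changed by 1.20, -0.30 and -0.96. The rise was still called with the array set as a term (1.19, adjusted p = 0.0212). The 6-week change was -1.04 with that term and was not called (adjusted p = 0.091).

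**Figure D3:**
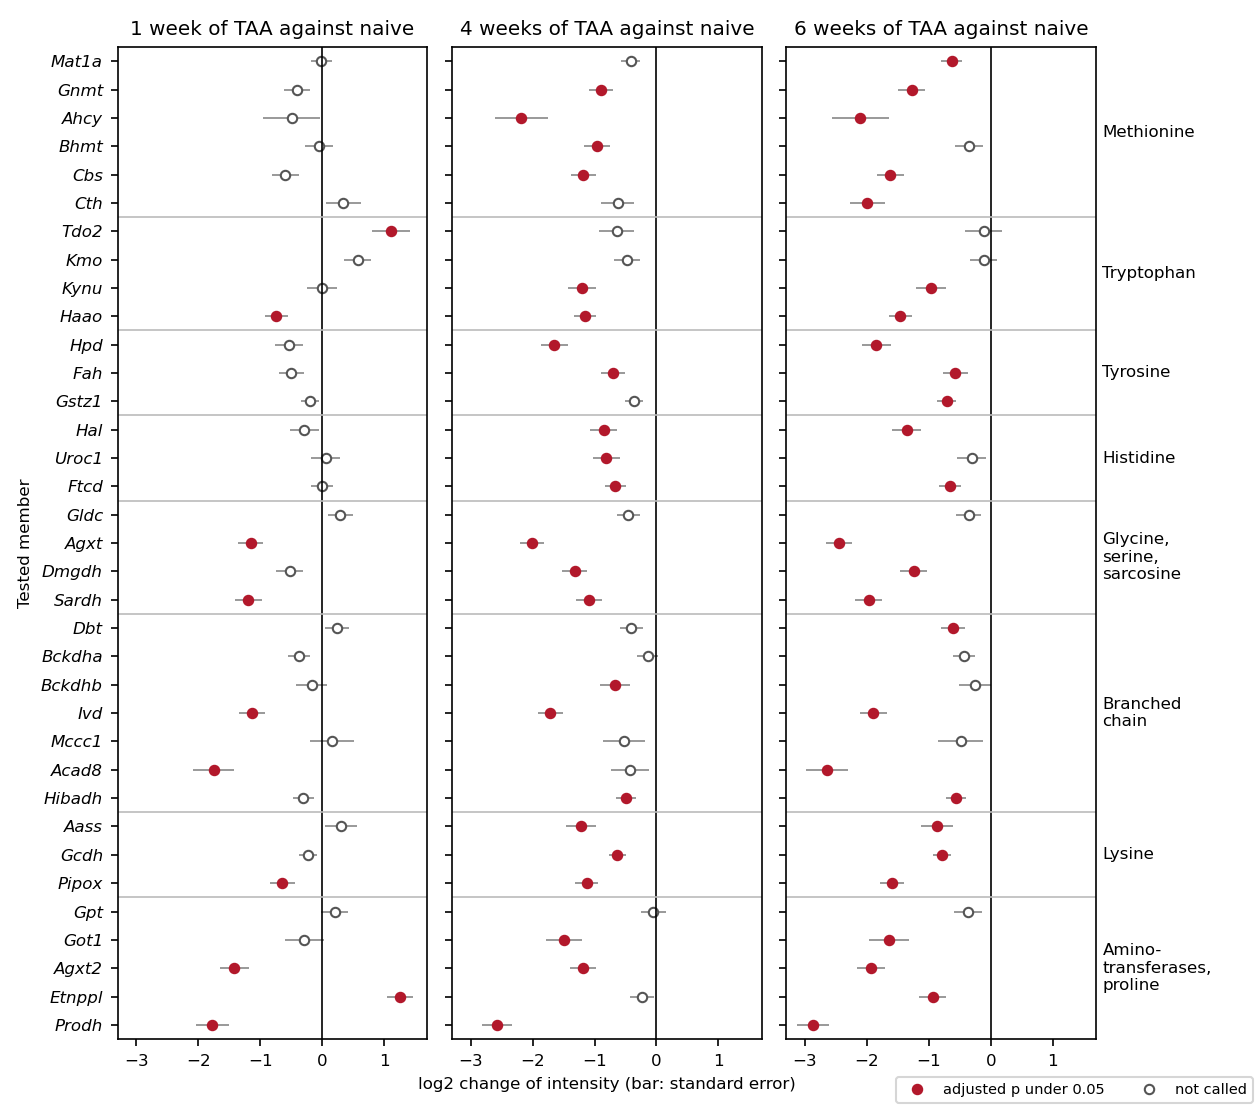
Log2 change from naive (horizontal axes, with SE bars) of the 35 tested members at 1, 4 and 6 weeks of TAA; filled red points were called at an adjusted p under 0.05 and open points were not. The called points number 10 at 1 week, 23 at 4 weeks and 26 at 6 weeks, and all points lie left of 0 at the later times.

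The pathway medians differed in their course. At 1 week the glycine, serine and sarcosine genes had the lowest median (-0.84) and the tryptophan genes the highest (0.29). At 6 weeks the aminotransferase and proline genes (-1.64), the glycine, serine and sarcosine genes (-1.61) and the methionine genes (-1.45) were lowest, and the tryptophan (-0.54) and branched-chain genes (-0.56) were nearest to naive. The medians rest on 3 to 7 genes, and pathway differences were not tested. As differences from the median of all genes, the 6-week aminotransferase and glycine values were -1.73 and -1.70, against -0.89 and -0.96 in the authors' value table, and the glycine value was -0.82 without the filter on dim probes. Some 1-week values moved with single arrays. For the aminotransferase and proline genes the 1-week value was -0.31, against 0.04 without 1-week array A, -0.69 without 1-week array B, -0.04 without naive array A and -0.53 without naive array C. For methionine it was -0.25, against -0.04 without 1-week array B, -0.38 without 1-week array C and -0.12 without naive array A. It was -0.34 for tyrosine without 1-week array A and 0.16 for tryptophan without 1-week array B, against -0.52 and 0.26, and for histidine it lay between -0.18 (without 1-week array B) and 0.04 (without 1-week array A). Leaving out 1 array moved no 4-week or 6-week value by over 1.5 times. Counting 8 pathways at 3 times, 23 of the 24 medians lay below the median of all genes, the tryptophan median at 1 week being the exception, at 0.26 above it and at -0.07 under both median scalings.

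**Figure D4:**
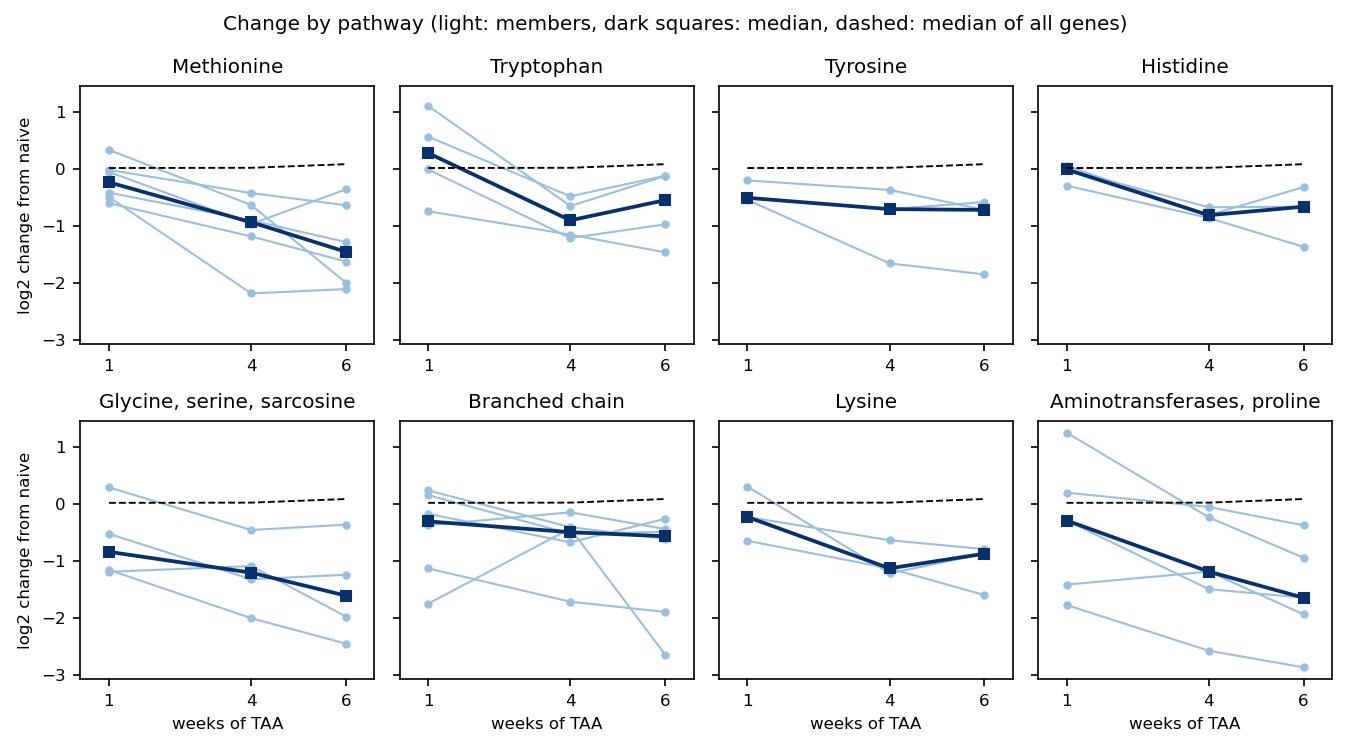
Log2 change from naive (vertical axes) of each tested member (light lines) and the median of its pathway (dark squares) against weeks of TAA (horizontal axes); the dashed line is the median of all genes tested. The medians lie below the dashed line except for tryptophan at 1 week, and the methionine median goes from -0.23 to -1.45.

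Other genes of the same routes had medians below 0 at each time. Their lists were written from general knowledge, but with earlier results of these data known. Of 50 tested, 17 were called lower and 3 higher at 1 week, beside 12.3% and 13.3% of all genes. At 4 weeks 22 were called lower and 1 higher, beside 12.9% and 15.2%, and at 6 weeks 31 lower and 3 higher, beside 16.4% and 22.4%, with medians of -0.36, -0.48 and -0.68. In the tryptophan list, 2, 4 and 6 of 6 genes were called lower at the 3 times, among them Afmid, the formamidase that follows Tdo2, with changes of -1.05 ± 0.23, -2.35 ± 0.21 and -2.76 ± 0.23. In the branched-chain list, 6, 7 and 8 of 11 were called lower, among them both propionyl-CoA carboxylase subunits, with changes at 4 weeks of -1.29 ± 0.17 for Pcca and -1.60 ± 0.15 for Pccb. Ppm1k, the phosphatase that activates the keto acid dehydrogenase, changed by -1.75 ± 0.32 at 4 weeks. Of the methionine and cysteine list 5 of 11 were called lower at each time. The cysteine dioxygenase Cdo1 changed by -1.18 ± 0.17 and the sulfite oxidase Suox by -1.49 ± 0.18 at 4 weeks. Of 10 glycine, serine and glyoxylate genes 3, 2 and 6 were called lower and 2, 0 and 1 higher. The serine hydroxymethyltransferase Shmt1 changed by -2.17 ± 0.27 at 6 weeks, and Dld, a dehydrogenase subunit shared with other complexes, rose by 1.10 ± 0.19 at 1 week. Of 5 phenylalanine and tyrosine genes 0, 2 and 3 were called lower, and of 7 lysine and proline genes 1, 2 and 3 lower and 1, 1 and 2 higher.

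Of 3 tested genes of amino acid synthesis, 0 were called lower and 1 was called higher at each time, Asns at 1 week and Aldh18a1, which starts proline synthesis, at 4 and 6 weeks. Asns, the asparagine synthetase, was not well above background on naive arrays and was at least 4.79-fold higher at 1 week (adjusted p = 4.43e-05). Among 12 tested regulators of hepatic amino acid enzymes 6, 4 and 6 were called lower and 0 higher. Of all genes, 12.3%, 12.9% and 16.4% were called lower at the 3 times and 13.3%, 15.2% and 22.4% higher. Changes were positive for 3, 1 and 3 of the 12 regulators, and Hnf4a was not called at any time (0.30, -0.12 and 0.28). The glucagon receptor Gcgr changed by -1.32 ± 0.26, -1.48 ± 0.24 and -1.05 ± 0.26 at the 3 times. Cebpa, a C/EBP factor of mature hepatocytes, changed by -1.07 ± 0.25 at 1 week and -1.68 ± 0.25 at 6 weeks. Klf15, a glucocorticoid-induced regulator of amino acid catabolism, changed by -1.03 ± 0.25 and -1.26 ± 0.26 at 4 and 6 weeks.

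Some markers of liver zones and of other cells also changed, not all with the course of the members. Their part in the fall of the members was not tested. Of 6 pericentral hepatocyte markers 5, 5 and 6 were called lower at 1, 4 and 6 weeks (medians -1.52, -1.54 and -1.74). Their summed level went from between 38382 and 46871 on naive arrays to 13082 to 16203 at 1 week, 14252 to 23371 at 4 weeks and 12977 to 14684 at 6 weeks. Glul, the glutamine synthetase that defines the innermost zone, was detected on 0 arrays of these 3 groups. Of 6 periportal markers 0, 1 and 2 were called lower (medians 0.00, -0.35 and -0.32), with a summed level of 47802 to 56554 on naive arrays, 50534 to 56069, 39143 to 46865 and 35985 to 46067 later. Stellate cell and myofibroblast markers were called higher for 2, 4 and 6 of 7, and their summed level went from 4162 to 4579 on naive arrays to 5568 to 6920, 5241 to 8993 and 6075 to 7838. That sum rests mainly on Dcn, with a naive log2 mean of 11.97 where the next brightest, Acta2, had 6.88. Dcn changed by 0.60, 0.52 and 0.59 at the 3 times, and Acta2 by -0.34, 2.14 and 2.25. Cholangiocyte markers were called higher for 1, 1 and 3 of 4 and summed to 111 to 133 on naive arrays and to 142 to 299, 232 to 540 and 500 to 596 later. Macrophage markers were called higher for 2, 3 and 2 of 6 and summed to 1559 to 1725 and then to 1897 to 4804, 2103 to 2958 and 1608 to 2924, and 1 of them, Clec4f, was called lower at 6 weeks (-1.01 ± 0.31). Of 3 lymphocyte markers 0, 1 and 1 were called higher, and Cd3g was called lower at 6 weeks. Of 5 endothelial markers 1, 0 and 1 were called higher and 1, 1 and 2 lower, Stab2 at each time (-0.53 ± 0.18, -0.72 ± 0.17 and -1.06 ± 0.18) and Pecam1 at 6 weeks (-0.82 ± 0.28). Of 3 erythroid markers 0 were called higher, and Hba-a1 was called lower at 1 week (-1.89 ± 0.60). The single tested pancreatic marker was not called.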

How the data were processed

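Total liver RNA was measured on 13 Illumina BeadArrays of 1 colour. Per the file headers, the deposited table holds for each probe a mean bead intensity that is neither normalised nor background-subtracted, with a detection p-value for each array. The tool was GenomeStudio, per the submitters' processing notes, in a version not given in the sources used. The authors also deposited log2 values that are centred per probe in the file, by a normalisation and centring not stated, whose group differences tracked those of the raw intensities (r = 0.998, slope 0.905 across probes); they served as an alternative. Column medians of these values ran from -0.00176 to 0.00134.

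Headers of the intensity table name the group and a letter per array, without slide or chip. Of 25697 probes, 23978 had 1 gene symbol, 1719 had none and 0 had several. Symbols were updated through gene identifiers (23962 probes) or accessions (9), which changed 8, and 7 stayed as they were.

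Background correction and quantile normalisation used neqc of limma 3.58.1 (R 4.3.3) with an offset of 16 and negative controls inferred from detection p-values. A probe with a detection p under 0.01 on at least 3 arrays was kept (11212), and the brightest per gene was tested (8027 genes). One limma model (lmFit, eBayes) with a mean per group gave 6 comparisons with two-sided moderated tests and Benjamini-Hochberg adjustment over all genes. The fit was tested on simulated data. For arrays, the number of arrays and the signal over background limit the precision.

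The members, pathways, wider lists and markers were chosen with earlier results of these data known. A member is given on every array where it was called against naive with a change of at least 1 log2 unit, or against the direction of most called members. Wider genes could be named from the same size on.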

Additional observations from a re-analysis of the deposited data

Results flagged for a closer look

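Some members lay above naive at 1 week and below it later, on the sign of their fitted changes, with a difference between the 2 treated times that itself passed the limma test. From 1 to 4 weeks these were Tdo2 (-1.76), Aass (-1.53), Etnppl (-1.49), Kmo (-1.05), Cth (-0.97), Uroc1 (-0.87), Gldc (-0.75) and Dbt (-0.64). From 1 to 6 weeks they were Cth (-2.33), Etnppl (-2.20), Tdo2 (-1.23), Aass (-1.18) and Dbt (-0.85). Of these members, Tdo2 and Etnppl were called above naive at 1 week, and the change of the other 6 from naive at 1 week was not called. With the array set as a term, the differences still called were those of Etnppl from 1 to 4 weeks and of Cth, Etnppl, Aass and Dbt from 1 to 6 weeks. No member had a 4-week array far enough from the other 3 to stand out.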

How the results depend on the processing

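Alternatives changed 1 choice at a time, except the replicate block, which was fitted on the authors' value table. The count called lower at 4 weeks against naive was 20 to 24 with an array left out, and 20 to 27 over all alternatives but the scaling to the median of all probes, which was added after the data were seen and gave 5. Without 1 array the counts called lower were 6 to 10 at 1 week and 23 to 26 at 6 weeks against naive, 7 to 17 from 1 to 4 weeks, 1 to 5 from 4 to 6 weeks and 9 to 23 from 1 to 6 weeks, and those called higher were 1 to 3 at 1 week and 0 to 1 from 1 to 4 weeks. The arrays whose absence moved a count by over 1.5 times were naive B and C, all 1-week and 6-week arrays except 1-week B, and 4-week C and D. Scaling over probes detected on all arrays called 16 members lower at 1 week and 0 higher from 1 to 4 weeks, with medians relative to all genes of -0.74, -1.11 and -1.55 at 1, 4 and 6 weeks against naive; it called 10.8% of all genes lower and 18.8% higher at 1 week. Scaling over all probes gave the same relative medians, called 0 higher at 1 week, 0 lower from 1 to 4 weeks, 28 from 4 to 6 weeks and 3 from 1 to 6 weeks, left 13 of 35 changes from 1 to 4 weeks negative where there had been 31, and, through a shift of the genes as a whole (0.71 and -0.94 in the median), gave 12 changes called under either normalisation the other sign: Bhmt 0.0057, Ftcd 0.12, Gldc 0.028, Agxt 0.075, Dmgdh 0.10 and Dbt 0.27 from 1 to 4 weeks, and Ahcy -1.11, Kynu -1.05, Fah -1.08, Ftcd -1.26, Gldc -1.13 and Dmgdh -0.997 from 4 to 6 weeks. The array set as a term gave 1 higher at 1 week (8.06% of all genes) and 13 lower at 6 weeks (5.18%, relative median -1.21). From 1 to 4 weeks it gave 1 lower (1.2%) and 0 higher (0.473%). It gave 0 lower from 4 to 6 weeks (0%) and 13 from 1 to 6 weeks (2.02%). The effect of this term is estimated from the 1-week arrays alone. Array weights gave 3 lower (1.57% of all genes) and 0 higher (1.06%) from 1 to 4 weeks. They gave 5 lower from 4 to 6 weeks (5.38%) and 5 from 1 to 6 weeks (1.1%). Fitting the compared groups alone gave 7, 5 and 7 lower in these 3 comparisons, beside 2.48%, 4.8% and 0.723% of all genes. The mean of a gene's probes gave 5 from 4 to 6 weeks. Without a filter on dim probes the relative medians were -0.66 at 4 weeks and -0.81 at 6 weeks and 0 were higher from 1 to 4 weeks. No background correction gave -0.81 at 6 weeks, and the authors' value table -0.67 at 4 weeks and -0.80 at 6 weeks. With the replicate block on the authors' value table, 0 were called higher from 1 to 4 weeks and 0 lower from 4 to 6 weeks, and the relative median at 6 weeks was -0.80. Same-numbered samples did not deviate together (r from -0.321 to 0.216 over 18 pairs). Differently numbered samples gave r from -0.161 to 0.342 over 45 pairs. These values cannot show whether equal numbers share a slide or a batch. The cause of these changes was not tested. The slide could not be used as a block, since the headers name none. Of the 24 pathway medians, 21 to 23 stayed below that of all genes with an array left out. Dim arrays limit what can be seen for weak probes such as those of Acad8 and Mccc1.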
